A study of Mus musculus with 12 samples.

Results

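The M1 response of bone-marrow-derived macrophages (BMDM) was compared between M-BKO and WT cells, gene by gene, to ask which genes answered LPS differently when Bmal1 was missing. The measure is the interaction, which is the log2 M1 response of M-BKO cells less that of WT cells. It used all 12 RNA libraries of the series, and 10822 of the 23440 genes in the expression table had at least 1 TPM in at least 3 libraries and were tested. All cells were BMDM of C57/BL6 mice grown for 7 days in medium with 30% L929-conditioned medium, and all were primed overnight (10 to 12 h) with 10 ng/mL Ifn-γ. M-BKO M1 cultures then received 10 ng/mL LPS for 8 h and M-BKO controls received none, and WT M1 cultures and WT controls were handled in the same way, with 3 cultures in each of the 4 groups. M-BKO mice carry floxed Bmal1 alleles and a Cre placed in the lysozyme gene Lyz2, and WT mice carry the floxed alleles alone, so that loss of Bmal1 and the Cre insertion cannot be told apart in these groups. The mice were 8 to 24 weeks old, and the replicates are described as cultures, so the p-values measure the spread between cultures, which may come from the same mice.

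Bmal1 (gene symbol Arntl) encodes a transcription factor that pairs with CLOCK on E-box sequences and drives the genes of its own repressors, the period and cryptochrome proteins, and of the nuclear receptors REV-ERBα and REV-ERBβ, which repress Arntl in turn. This loop gives cells a daily rhythm and also reaches genes of inflammation and metabolism in macrophages. LPS acts through Toll-like receptor 4 to switch on NF-kB and interferon regulatory factors. In cells primed with Ifn-γ it gives the inflammatory state named M1, with cytokine, chemokine and antimicrobial genes switched on and many growth genes switched off.

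The genes altered by the design were read first. Arntl had 3.13, 3.39 and 3.03 TPM in M-BKO M1 and 2.31, 1.97 and 2.46 TPM in M-BKO controls, against 5.47, 4.81 and 5.801 TPM in WT M1 and 7.71, 7.25 and 7.54 TPM in WT controls. The M-BKO cultures were lower than the WT cultures throughout. The M1 response of Arntl was 0.37 ± 0.08 in M-BKO and -0.42 ± 0.08 in WT (log2, SE), with neither past the 1.5-fold threshold used for single responses, and the interaction was 0.79 ± 0.12 (SE; limma adjusted p = 0.00392). The fall in WT at 8 h differs from the study's own time course by qPCR and immunoblot. There M1 raised Bmal1 mRNA and protein in BMDM, with a peak later than 8 h, and those data were not analysed here. TPM over the whole gene does not separate transcripts with and without the floxed exon, and the RNA left in M-BKO was not resolved by exon. Lyz2 had 78.8, 62.3 and 52.3 TPM in M-BKO M1 and 47.01, 61.1 and 56.5 TPM in M-BKO controls, against 15081, 15057 and 14840.2 TPM in WT M1 and 31785, 32592 and 34645 TPM in WT controls, with an interaction of 1.35 ± 0.16 (limma adjusted p = 7.93e-04). The Cre was inserted in this gene, so its level in M-BKO is not that of a normal allele.

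The number of genes above 0 TPM was 13315 to 13574 per library, and TPM keeps no read depth. The spread of a library around its group mean was 0.0952 to 0.174 on the log2 scale, widest in WT control 3. The 8 macrophage markers found (Emr1, Csf1r, Cd68 and Itgam among them) were all at 1 TPM or more in every group, with a summed level of 5391 to 5550 TPM in M-BKO M1, 6120 to 6267 TPM in M-BKO controls, 4879 to 5027 TPM in WT M1 and 5473 to 5587 TPM in WT controls. Summed markers of T and NK cells reached at most 6.66 TPM, of B cells 5.92 TPM, of mast cells and basophils 0.650 TPM and of erythroid cells 0.555 TPM. Dendritic markers summed to 65.5 to 72.6 TPM in M-BKO M1, 78.7 to 86.1 TPM in M-BKO controls, 74.6 to 81.5 TPM in WT M1 and 95.9 to 102.8 TPM in WT controls. The sum of neutrophil and granule genes was higher in M-BKO (361.7 to 393 TPM after M1 and 359.8 to 412 TPM in controls) than in WT (244 to 278 TPM after M1 and 284 to 318 TPM in controls). A few genes carried these sums. S100a9 alone averaged 66.4 TPM in M-BKO M1 and 192.8 TPM in M-BKO controls, against 47.1 TPM in WT M1 and 149.1 TPM in WT controls. Of the 13 granule genes found, 8 were under 1 TPM after M1 in each genotype, 4 in M-BKO controls and 6 in WT controls. Mpo reached at most 0.833 TPM and Elane 0.970 TPM in any library. The part of these marker sets in the results below was not tested. Fewer cells of a type cannot be told apart from less RNA per cell.

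For most genes no difference between the M1 responses of M-BKO and WT was called. The interaction was above 0 for 58 genes (0.536% of those tested) and below 0 for 91 genes (0.841%) at a Benjamini-Hochberg adjusted p under 0.05 in limma, 149 genes or 1.38% in all. The interaction lay within 0.5 of 0 for 98.3% of the tested genes, with a median SE of 0.11, and 1660 genes had an unadjusted p under 0.05. Among called genes the size of the interaction had a median of 0.51 above 0 and 0.47 below 0, and it was over 1 for 7 genes above 0 and 4 below 0. The median over all tested genes was -0.03, and 41.5% were above 0. Of every 1000000 TPM, Lyz2 alone averaged 64.5 in M-BKO M1 and 54.9 in M-BKO controls, against 14993 in WT M1 and 33007 in WT controls. With TPM totals taken without Lyz2 the median was -0.0067 and the calls split into 68 above 0 and 69 below 0. Of the calls, 38.9% were above 0 as deposited, 49.6% without Lyz2, 48.7% under median ratio scaling (74 above, 78 below), 52.1% under quantile normalization (76 above, 70 below) and 54.4% without the 50 most abundant genes (75 above, 63 below). The balance between the directions depends on the scaling.

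**Figure D1:**
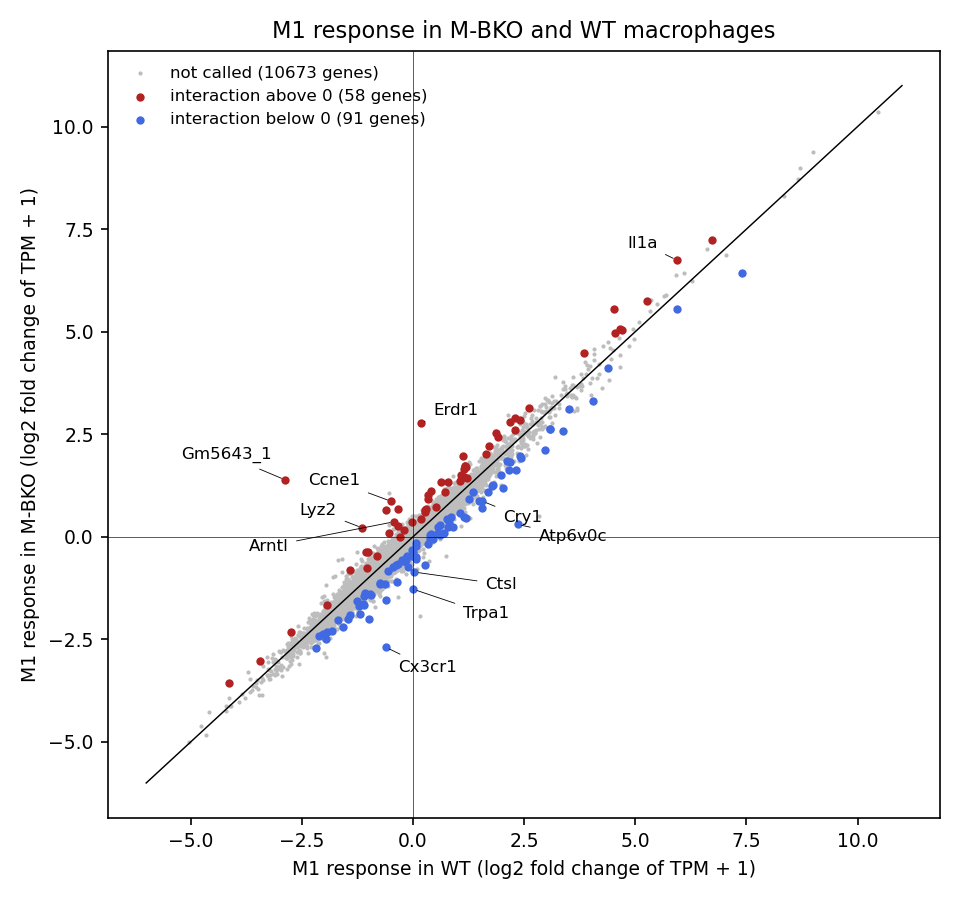
M1 response in M-BKO (vertical axis) against the M1 response in WT (horizontal axis), both as log2 fold changes of TPM + 1, for the 10822 tested genes; red points are the 58 genes with an interaction above 0, blue points the 91 below 0, grey points the others, and the diagonal marks equal responses. Nearly all genes lie close to the diagonal, and called genes lie to either side of it over the whole range of responses.

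The called genes were sorted by how they behaved in each genotype, with a response counted at an adjusted p under 0.05 and a fold over 1.5. Of the 58 genes above 0, 29 were higher after M1 in both genotypes, 6 were lower in both, 10 were higher in M-BKO only, 4 were lower in WT only, 2 had opposite responses and 7 passed in neither. Of the 91 below 0, 25 were higher in both genotypes, 25 lower in both, 11 lower in M-BKO only, 12 higher in WT only and 18 passed in neither. For 54 of the 149 genes, then, the genotypes differed in the size of a rise, and for 31 in the depth of a fall.

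The interaction is also the difference between M-BKO and WT after M1 minus the difference without LPS, and both parts were read for each gene. Among genes above 0 the genotype difference passed the test after M1 only in 31, without LPS only in 15, in both conditions in 11 and in neither in 1. Among genes below 0 these numbers were 46, 30, 10 and 5. The genotype difference after M1 had a median of 0.33 for genes above 0 and -0.25 for genes below 0, against -0.15 and 0.20 without LPS. For 30 of the genes above 0 and 72 of those below 0 it had opposite signs in the 2 conditions. A gene that starts at another level in M-BKO controls can therefore carry a called interaction with a like level after M1 in both genotypes. On the linear scale the difference between the 2 changes in TPM had the other sign for 5 of the 58 genes and 3 of the 91.

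**Figure D2:**
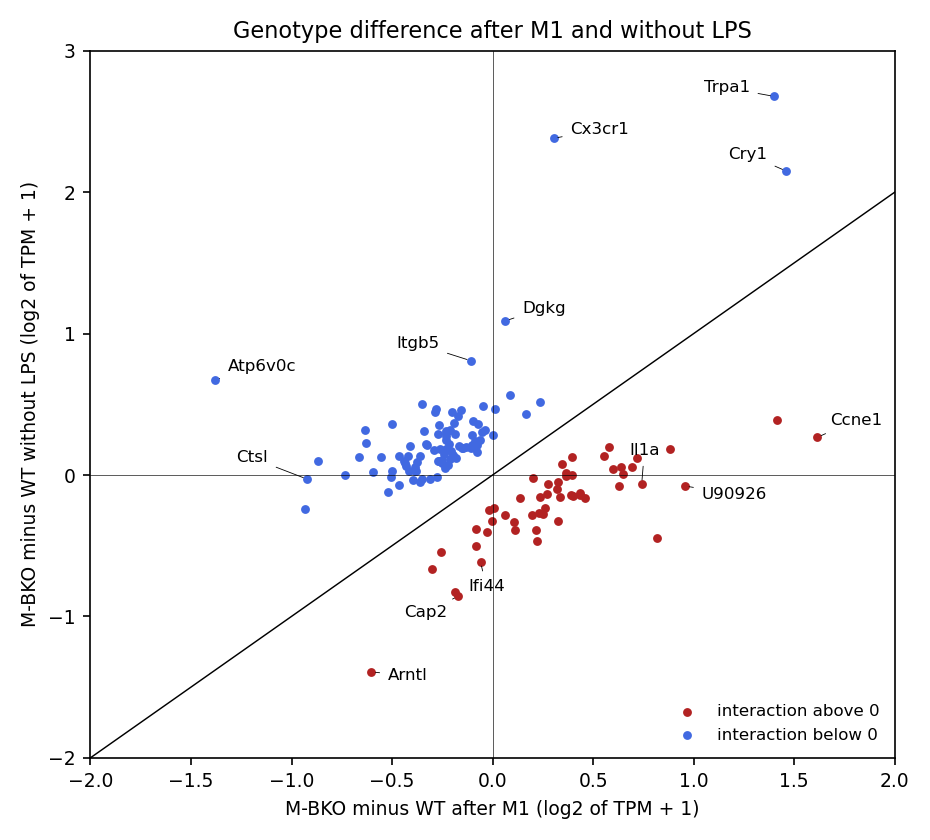
M-BKO minus WT after M1 (horizontal axis) against M-BKO minus WT without LPS (vertical axis), in log2 of TPM + 1, for the called genes; red points have an interaction above 0 and lie below the diagonal of equal differences, blue points have one below 0 and lie above it. Erdr1, G530011O06Rik, Gm5643_1 and Lyz2 lie outside the axes. Cx3cr1, Dgkg and Itgb5 differ mainly without LPS, Ccne1, Il1a and Ctsl mainly after M1.

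Each library was left out in turn, which lowers the residual degrees of freedom from 8. The calls then ranged from 27 to 80 above 0 and from 30 to 133 below 0. Leaving out M-BKO control 2 gave the fewest (27 above, 30 below), and leaving out WT control 1 (80 above, 133 below) or WT control 3 (75 above, 133 below) gave the most. At least 1 of the 12 fits lost the call for 98 of the 149 genes. Across the 25 alternative settings without a fold threshold 40 genes were called wherever they were tested, and 148 kept the sign of the interaction. The exception was G530011O06Rik (-0.02 with a pseudocount of 0.1). A further threshold of 1.5-fold, which left 21 calls above 0 and 26 below 0, is not among the 25. Of the genes described below, Ccl4, Cd14, Cdkn2d, Cxcl10, Irf8, Slc15a3, Socs1 and Socs3, all below 0, lost the call under at least 1 of the 4 other scalings. With a pseudocount of 0.1 the calls of Ccl24, Cdkn2d, Cxcl1, Dgkg, Erdr1, Il1a, Pla1a, Slc7a11, U90926 and Zdhhc2 were lost, and with a pseudocount of 5 that of Tlr13. Without the filter on low values, or without a trend of the variance with the mean level, Ankrd13d, Cav1, Ccl4, Ccl24, Cd14, Cd36, Cdkn2d, Cxcl1, Cxcl10, Fcgr2b, Ifi44, Irf8, Mx1, Oasl2, Psat1, Slc15a3, Slc7a11, Socs1, Socs3, Tlr13 and Zdhhc2 were lost in 1 or both. Arl4c was also lost without the filter, and Arrb2 without the trend, under median ratio scaling and without the 50 most abundant genes. The number of left-out fits that lost a call, with the highest adjusted p among them, is given below for most called genes.

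For every gene list below, the counts of calls stand against 0.536% of all tested genes called above 0 and 0.841% called below 0. Clock genes came first because Bmal1 acts on them directly. Of 13 tested core clock genes 1 was called above 0 (Arntl) and 1 below 0 (Cry1), with a median interaction of -0.08, and none of the 14 tested output genes was called (smallest adjusted p = 0.0652). Cry1 encodes a cryptochrome, a repressor of BMAL1 and CLOCK. It had 45.3, 43.7 and 48.6 TPM in M-BKO M1 and 23.9, 25.6 and 24.4 TPM in M-BKO controls, against 16.5, 15.97 and 15.6 TPM in WT M1 and 4.75, 4.33 and 5.28 TPM in WT controls. The M-BKO cultures were higher than the WT cultures of the same condition, without overlap. Cry1 rose after M1 in both genotypes, by 0.87 in M-BKO and by 1.56 in WT (log2), and the interaction was -0.69 ± 0.09 (limma adjusted p = 0.00224; called in all 12 left-out fits, highest 0.0117). The genotype difference was 1.46 after M1 and 2.15 without LPS. On the linear scale the rise was larger in M-BKO by 10.03 TPM, the other sign. The repressors of Arntl, Nr1d1 and Nr1d2, had genotype differences of -0.94 and -2.22 after M1 and -0.89 and -2.50 without LPS (log2), and their interactions of -0.06 ± 0.16 and 0.28 ± 0.14 did not pass the test (limma adjusted p = 0.895 and 0.366). Nr1d2 averaged 3.30 TPM in M-BKO M1 and 0.886 TPM in M-BKO controls, against 19.02 TPM in WT M1 and 9.59 TPM in WT controls. In TPM its rise was smaller in M-BKO, the other sign, with a difference between the changes of -7.02 TPM. For Nr1d1 that difference was -1.60 TPM. Per1 had -0.08 (adjusted p = 0.795) and the output gene Dbp -0.03 (adjusted p = 0.962).

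The start-site windows of called genes were searched for 3 motifs on both strands, and none of the 3 motifs contains another. These were the E-box bound by BMAL1 and CLOCK (CACGTG), the letters AGGTCA and the core of the interferon-stimulated response element (GAAA, NN and GAAA without a break). AGGTCA is only a part of the element bound by ROR and REV-ERB receptors, and the rest of that element was not searched for. The windows run from 250 bases before to 50 bases after a RefSeq gene start on GRCm38.p6 (mm10). They are shown for Cry1, Ctsl and Ptgs2, 3 called genes that held an E-box and are described at length. A window of Arntl, which holds AGGTCA, is also shown. Capitals mark the motif.
Cry1: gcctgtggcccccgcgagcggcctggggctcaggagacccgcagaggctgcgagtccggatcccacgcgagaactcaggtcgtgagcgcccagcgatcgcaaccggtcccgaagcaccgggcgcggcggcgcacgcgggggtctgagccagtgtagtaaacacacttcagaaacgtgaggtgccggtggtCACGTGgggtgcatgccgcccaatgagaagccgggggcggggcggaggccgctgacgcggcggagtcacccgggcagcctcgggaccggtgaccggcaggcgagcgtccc
Ctsl: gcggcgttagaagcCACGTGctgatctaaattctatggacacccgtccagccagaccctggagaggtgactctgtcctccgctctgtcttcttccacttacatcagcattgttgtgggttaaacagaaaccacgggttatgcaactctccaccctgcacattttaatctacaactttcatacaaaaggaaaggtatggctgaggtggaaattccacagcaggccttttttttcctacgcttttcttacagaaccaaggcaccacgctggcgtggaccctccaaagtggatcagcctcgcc
Ptgs2: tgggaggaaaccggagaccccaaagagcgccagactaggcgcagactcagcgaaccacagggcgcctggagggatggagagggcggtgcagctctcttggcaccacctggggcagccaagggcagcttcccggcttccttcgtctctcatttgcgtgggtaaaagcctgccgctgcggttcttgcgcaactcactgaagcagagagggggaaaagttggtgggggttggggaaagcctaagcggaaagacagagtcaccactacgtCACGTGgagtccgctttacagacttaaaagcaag
Arntl: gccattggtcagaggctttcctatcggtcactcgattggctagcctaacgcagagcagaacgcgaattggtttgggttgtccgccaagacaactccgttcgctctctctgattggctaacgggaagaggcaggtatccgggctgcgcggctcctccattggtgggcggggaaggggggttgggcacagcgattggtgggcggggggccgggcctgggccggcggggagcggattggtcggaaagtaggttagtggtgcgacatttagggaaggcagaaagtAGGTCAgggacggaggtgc
The Cry1 window is chr10:85185005-85185304 on the minus strand, with the E-box 60 bases before the start. The Ctsl window is chr13:64370471-64370770 on the minus strand, with the E-box 236 bases before the start. The Ptgs2 window is chr1:150099781-150100080 on the plus strand, with the E-box 16 bases after the start. The Arntl window, the second of its RefSeq starts, is chr7:113207261-113207560 on the plus strand, with AGGTCA 31 bases after the start. An E-box was in 3 of the 45 genes above 0 that had a window (6.67%) and in 7 of 66 below 0 (10.6%), against 12.4% of 8187 tested genes with a window and 7.15% of all 32851 windows. AGGTCA was in 10 of 45 (22.2%) and 10 of 66 (15.2%), against 14.5% of tested genes and 16.3% of windows. These are not counts of the whole receptor element. The interferon core was in 5 of 45 (11.1%) and 3 of 66 (4.55%), against 4.06% of tested genes and 3.44% of windows. A match in a window is a description of its letters and does not show that a factor binds there.

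**Figure D3:**
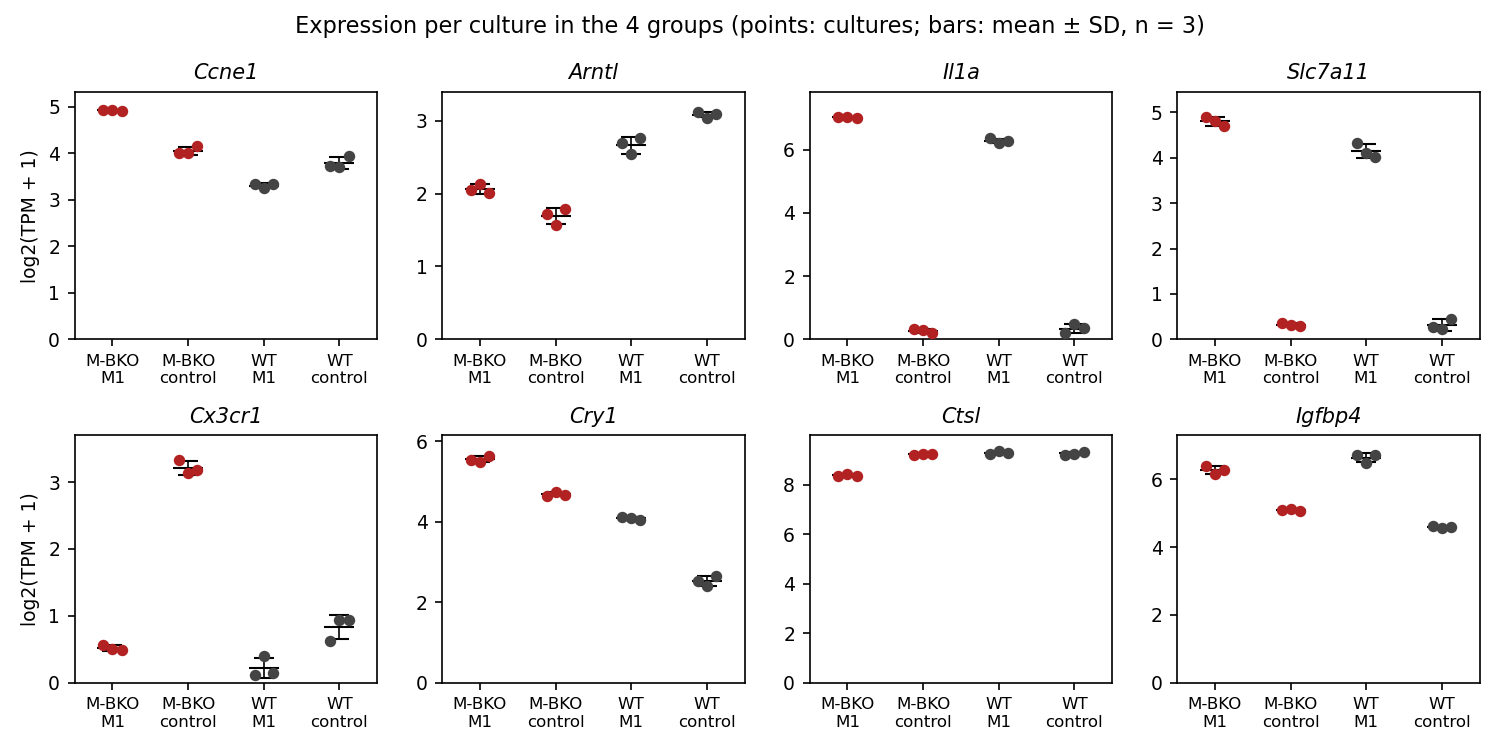
Expression of 8 called genes in log2(TPM + 1), 1 panel per gene with the 4 groups side by side; points are the 3 cultures of a group and bars the mean ± SD (M-BKO in red, WT in grey). The upper row shows genes with an interaction above 0 and the lower row genes with one below 0. Ccne1 and Il1a are highest in M-BKO M1, and Ctsl is lower in M-BKO M1 than in the other 3 groups.

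Cyclin genes were called in both directions. Of 41 tested cell-cycle and replication genes, 1 was called above 0 and 2 below 0, with a median of -0.06. Ccne1 (chr7:38097984-38107490, minus strand), which encodes cyclin E1 of the G1 to S transition, had 29.5, 29.4 and 29.04 TPM in M-BKO M1 and 15.2, 14.99 and 16.9 TPM in M-BKO controls, against 9.08, 8.51 and 9.13 TPM in WT M1 and 12.3, 12.1 and 14.3 TPM in WT controls. M-BKO M1 cultures were the highest and WT M1 cultures the lowest, with no overlap among the 4 groups. Its M1 response was 0.86 in M-BKO and -0.48 in WT, and the interaction was 1.35 ± 0.10 (limma adjusted p = 8.88e-06; called in all 12 left-out fits, highest 1.28e-04). Ccnd1, the gene of cyclin D1, fell after M1 in both genotypes and further in M-BKO. It had 42.2, 37.9 and 41.3 TPM in M-BKO M1 and 213, 203 and 200.1 TPM in M-BKO controls, against 58.1, 55.8 and 54.4 TPM in WT M1 and 222, 214 and 209.9 TPM in WT controls, with an interaction of -0.39 ± 0.07 (limma adjusted p = 0.0116; called in all 12 left-out fits, highest 0.0441). Cdkn2d, which encodes the inhibitor p19 of the cyclin D kinases, had 33.2, 26.6 and 32.98 TPM in M-BKO M1 and 21.6, 19.5 and 19.99 TPM in M-BKO controls, against 44.3, 44.8 and 42.97 TPM in WT M1 and 21.8, 19.5 and 20.2 TPM in WT controls. Its interaction was -0.49 ± 0.11 (limma adjusted p = 0.0417), lost in 9 of 12 left-out fits (up to 0.119).

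Among inflammatory cytokines, the interleukin-1 family genes Il1a and Il1rn had larger M1 responses in M-BKO. The list of M1 cytokines, which also holds the enzyme gene Ptgs2, had 30 tested genes. Of these, 3 were called above 0 (Il1a, Ptgs2 and Il1rn) and 1 below 0 (Ebi3), the median was 0.00, and 15 were above 0. Il1a encodes interleukin-1α, an alarm cytokine that LPS induces. It had 129, 129.9 and 127 TPM in M-BKO M1 and 0.247, 0.234 and 0.151 TPM in M-BKO controls, against 80.8, 73.6 and 75.6 TPM in WT M1 and 0.1396, 0.387 and 0.2800 TPM in WT controls. The M1 cultures of the genotypes did not overlap, and no control exceeded 0.387 TPM. The interaction was 0.81 ± 0.10 (limma adjusted p = 0.00159), it was called in all 12 left-out fits (highest 0.00931), and with a pseudocount of 0.1, which gives the low controls more weight, it was 0.95 (adjusted p = 0.136). Il1rn, the gene of the interleukin-1 receptor antagonist, had 3152, 3257 and 3143 TPM in M-BKO M1 and 96.5, 93.8 and 94.6 TPM in M-BKO controls, against 3137, 3065 and 2949.7 TPM in WT M1 and 112, 112 and 124 TPM in WT controls. M-BKO controls were below WT controls without overlap, the M1 cultures differed by 0.06 on the log2 scale, and the interaction was 0.35 ± 0.06 (limma adjusted p = 0.0116; called in all 12 left-out fits, highest 0.0446). Il1b, the gene of interleukin-1β, was not called, with 0.37 ± 0.18 (adjusted p = 0.331), an estimate near that of Il1rn with a wider SE. It had 3385, 3296 and 3338 TPM in M-BKO M1 and 3.82, 4.86 and 3.51 TPM in M-BKO controls. In WT it had 2642, 2526 and 2596 TPM after M1 and 3.18, 3.74 and 5.48 TPM in controls. The M1 cultures of the genotypes did not overlap and the controls did.

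Ptgs2 encodes cyclooxygenase-2, the inducible enzyme of prostaglandin synthesis. It had 2154, 1984 and 2204 TPM in M-BKO M1 and 37.1, 39.4 and 38.7 TPM in M-BKO controls, against 1938, 1734 and 1872 TPM in WT M1 and 45.3, 45.2 and 50.3 TPM in WT controls. M-BKO was higher after M1 and lower without LPS, without overlap in either condition. The M1 response was 5.75 in M-BKO and 5.27 in WT, and the interaction was 0.48 ± 0.08 (limma adjusted p = 0.00974; called in all 12 left-out fits, highest 0.0352). Ebi3, which encodes a subunit of interleukin-27 and interleukin-35, went the other way. It had 499.9, 491 and 486 TPM in M-BKO M1 and 55.6, 56.9985 and 55.9 TPM in M-BKO controls, against 639, 624 and 668 TPM in WT M1 and 58.1, 58.0015 and 49.8 TPM in WT controls, so that the M1 cultures did not overlap and the controls did. Its interaction was -0.41 ± 0.07 (limma adjusted p = 0.01598), lost in 4 of 12 left-out fits (up to 0.0591).

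Every called chemokine had a smaller M1 response in M-BKO. Of 11 tested CC chemokine genes 2 were called below 0, of 10 CXC chemokine genes 2, and none of either family above 0, against 0.841% below 0 and 0.536% above 0 of all tested genes. The medians were -0.04 and -0.14. Ccl4, which encodes MIP-1β, a chemokine for monocytes and T cells, had 1587, 1557 and 1582 TPM in M-BKO M1 and 31.9, 33.1 and 32.3 TPM in M-BKO controls, against 1655, 1693 and 1734 TPM in WT M1 and 24.2, 28.8 and 26.8 TPM in WT controls. The genotype difference was -0.10 after M1 and 0.28 in the controls (log2). The interaction was -0.38 ± 0.07 (limma adjusted p = 0.0167), lost in 4 of 12 left-out fits (up to 0.0629). Ccl24, which encodes the eosinophil chemokine eotaxin-2, had 6.56, 6.63 and 7.08 TPM in M-BKO M1 and 0.605, 1.14 and 0.692 TPM in M-BKO controls, against 10.7, 9.87 and 9.39 TPM in WT M1 and 0.641, 0.296 and 0.286 TPM in WT controls. Its interaction was -0.87 ± 0.17 (limma adjusted p = 0.0222), lost in 6 of 12 left-out fits (up to 0.0683).

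Cxcl1 encodes a neutrophil chemokine. It had 11.02, 9.65 and 8.21 TPM in M-BKO M1 and 0.103, 0.0971 and 0 TPM in M-BKO controls, against 18.9, 14.03 and 17.04 TPM in WT M1 and 0, 0.101 and 0.0971 TPM in WT controls. The M1 cultures did not overlap and the controls were near 0 in both genotypes. The interaction was -0.73 ± 0.16 (limma adjusted p = 0.0414), lost in 9 of 12 left-out fits (up to 0.112) and with a pseudocount of 0.1 (adjusted p = 0.3995). Cxcl10, the gene of the interferon-induced T-cell chemokine IP-10, had 2990.2, 2675 and 3191 TPM in M-BKO M1 and 2161, 2214 and 2203 TPM in M-BKO controls, against 3502, 3395 and 3609 TPM in WT M1 and 2107, 2093 and 2002 TPM in WT controls. Here too M-BKO M1 cultures were below WT M1 cultures, and the interaction was -0.33 ± 0.07 (limma adjusted p = 0.0414), lost in 9 of 12 left-out fits (up to 0.112) and under all 4 other scalings (adjusted p = 0.0794 under median ratio scaling). Cxcl3, a further neutrophil chemokine gene, had the largest value of its list in the other direction and did not pass, at 0.74 ± 0.21 (adjusted p = 0.107).

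Cx3cr1 (chr9:120048683-120068296, minus strand) encodes the fractalkine receptor of monocytes and macrophages, and it was the only one of 10 tested chemoattractant receptor genes that was called. It had 0.485, 0.422 and 0.402 TPM in M-BKO M1 and 9.01, 7.76 and 8.06 TPM in M-BKO controls, against 0.0831, 0.313 and 0.106 TPM in WT M1 and 0.538, 0.915 and 0.908 TPM in WT controls. M-BKO controls stood apart from all other cultures, and after M1 no culture exceeded 0.485 TPM. The gene fell after M1 in both genotypes, with a response of -2.69 in M-BKO and -0.61 in WT on the log2(TPM + 1) scale, where the pseudocount limits how far a low gene can fall. The interaction was -2.08 ± 0.15 (limma adjusted p = 8.88e-06; called in all 12 left-out fits, highest 1.28e-04), and with a pseudocount of 0.1 it was -2.17 (adjusted p = 0.0208). The genotype difference was 0.30 after M1 and 2.38 without LPS.

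Feedback inhibitors of cytokine signalling responded less in M-BKO where they were called. Of 14 tested genes of feedback inhibitors and mRNA decay, 2 were called below 0 and none above, with a median of -0.14. Over all tested genes 0.841% were called below 0 and 0.536% above 0. Socs1, which encodes an inhibitor of the JAK kinases downstream of Ifn-γ, had 203, 199.8 and 192 TPM in M-BKO M1 and 174, 168 and 165 TPM in M-BKO controls, against 234, 283 and 283 TPM in WT M1 and 163, 166 and 134 TPM in WT controls. The M1 cultures did not overlap, and the response was 0.23 in M-BKO and 0.79 in WT. Its interaction was -0.56 ± 0.11 (limma adjusted p = 0.0306), lost in 8 of 12 left-out fits (up to 0.0844). Socs3, an inhibitor of signals through the interleukin-6 receptor chain gp130, had 492, 468 and 478 TPM in M-BKO M1 and 75.9, 79.4 and 73.1 TPM in M-BKO controls, against 547, 558 and 568 TPM in WT M1 and 69.9, 69.8 and 57.2 TPM in WT controls. Its interaction was -0.44 ± 0.09 (limma adjusted p = 0.0324), lost in 8 of 12 left-out fits (up to 0.0929). Irf8, which encodes a transcription factor of the macrophage lineage and of the Ifn-γ response, had 662, 624 and 664 TPM in M-BKO M1 and 519, 537 and 532 TPM in M-BKO controls, against 856, 814 and 836 TPM in WT M1 and 576, 564 and 504 TPM in WT controls, with an interaction of -0.31 ± 0.07 (limma adjusted p = 0.0355) that was lost in 9 of 12 left-out fits (up to 0.104) and under 3 of the 4 other scalings (adjusted p = 0.0795 under median ratio scaling). It was the only call among 26 tested genes of lineage and immediate-early factors.

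On the sensing side, 2 of 40 tested genes of the NF-kB and Toll-like receptor pathway were called, 1 in each direction, with a median of -0.06. Cd14 encodes the co-receptor that hands LPS to Toll-like receptor 4. It had 1879.5, 1831 and 1799 TPM in M-BKO M1 and 104, 111 and 102 TPM in M-BKO controls, against 1576, 1562 and 1539 TPM in WT M1 and 73.9, 75.9 and 70.3 TPM in WT controls. M-BKO was higher in both conditions without overlap, and in relative terms the rise was smaller in M-BKO, with an interaction of -0.28 ± 0.06 (limma adjusted p = 0.0273) lost in 7 of 12 left-out fits (up to 0.0808). On the linear scale the rise of Cd14 was larger in M-BKO by 245 TPM. Tlr13, which encodes a receptor for bacterial ribosomal RNA, fell after M1 in both genotypes and, on the log2 scale, less far in M-BKO. It had 13.5, 14.4 and 13.9 TPM in M-BKO M1 and 126, 114 and 121 TPM in M-BKO controls, against 9.24, 8.85 and 9.37 TPM in WT M1 and 103, 103 and 123 TPM in WT controls, with an interaction of 0.42 ± 0.09 (limma adjusted p = 0.0444), lost in 9 of 12 left-out fits (up to 0.127). On the linear scale the fall of Tlr13 was larger in M-BKO, with a difference between the changes of -5.87 TPM.

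Interferon-stimulated genes leaned above 0. All 26 of the list were tested, 21 were above 0 against 41.5% of all tested genes, the median was 0.15, and 3 were called, all above 0. Ifi44, an antiviral interferon-induced gene, had 146, 144 and 148 TPM in M-BKO M1 and 43.5, 43.8 and 42.2 TPM in M-BKO controls, against 169.9, 141 and 148 TPM in WT M1 and 62.5, 60.9 and 77.7 TPM in WT controls. M-BKO controls were below WT controls without overlap, and the M1 cultures overlapped. Its interaction was 0.56 ± 0.12 (limma adjusted p = 0.0332), lost in 8 of 12 left-out fits (up to 0.0856). Mx1, which encodes an antiviral GTPase, had 1080.3, 986 and 1112 TPM in M-BKO M1 and 169.7, 181 and 172 TPM in M-BKO controls, against 1155, 1092 and 1116 TPM in WT M1 and 220.2, 226 and 234 TPM in WT controls, with an interaction of 0.30 ± 0.07 (limma adjusted p = 0.0417; lost in 8 of 12, up to 0.119). On the linear scale the rise of Mx1 was smaller in M-BKO, with a difference between the changes of -8.38 TPM. Oasl2, a gene of the oligoadenylate synthetase family, had 570.3, 556 and 582 TPM in M-BKO M1 and 419, 429 and 426 TPM in M-BKO controls, against 579, 558 and 562 TPM in WT M1 and 478, 497 and 519.6 TPM in WT controls, with an interaction of 0.24 ± 0.05 (limma adjusted p = 0.03804; lost in 9 of 12, up to 0.112). For all 3 the M1 cultures of the genotypes overlapped and the controls were lower in M-BKO, with genotype differences of -0.62, -0.38 and -0.23 without LPS (log2). None of the 12 tested interferon-induced GTPases of the guanylate-binding and immunity-related families was called, with a median of 0.06 and 11 above 0 (smallest adjusted p = 0.435).

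Of 20 tested amino-acid transporter genes, 2 were called above 0 and 1 below 0, with a median of -0.04. Slc7a2 encodes CAT2, the transporter that brings arginine into activated macrophages. It had 315, 301 and 313 TPM in M-BKO M1 and 8.25, 8.45 and 8.23 TPM in M-BKO controls, against 246, 230.4 and 229 TPM in WT M1 and 8.17, 8.04 and 8.66 TPM in WT controls. The controls overlapped, the M1 cultures did not, and the response was 5.06 in M-BKO and 4.67 in WT. The interaction was 0.39 ± 0.06 (limma adjusted p = 0.00925; called in all 12 left-out fits, highest 0.0365). Slc7a11, the gene of the cystine importer xCT, which feeds glutathione synthesis and is a target of Nrf2, had 28.9, 27.1 and 24.97 TPM in M-BKO M1 and 0.285, 0.2398 and 0.226 TPM in M-BKO controls, against 19.1, 16.2 and 15.2 TPM in WT M1 and 0.199, 0.165 and 0.369 TPM in WT controls. Again the controls overlapped and the M1 cultures did not. Its interaction was 0.64 ± 0.13 (limma adjusted p = 0.0324), lost in 8 of 12 left-out fits (up to 0.08399) and with a pseudocount of 0.1 (adjusted p = 0.293). Slc15a3, which encodes a lysosomal transporter of histidine and small peptides, had 1327, 1365 and 1305 TPM in M-BKO M1 and 367, 372 and 372 TPM in M-BKO controls, against 1135, 1230.4 and 1197 TPM in WT M1 and 282, 277 and 266 TPM in WT controls, with an interaction of -0.26 ± 0.05 (limma adjusted p = 0.0301; lost in 8 of 12, up to 0.0876). As for Cd14, M-BKO was higher in both conditions and the linear rise was larger in M-BKO, by 49.6 TPM.

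Psat1, an enzyme gene of serine synthesis, was the only call among 17 tested genes of the integrated stress response. It had 509, 492 and 511 TPM in M-BKO M1 and 182, 181 and 184 TPM in M-BKO controls, against 532, 478 and 508 TPM in WT M1 and 229.9, 214 and 244 TPM in WT controls. The M1 cultures overlapped and M-BKO controls were below WT controls, with an interaction of 0.32 ± 0.07 (limma adjusted p = 0.0344), lost in 8 of 12 left-out fits (up to 0.0957). A list of 34 tested genes was taken from among those the study names, with these libraries known, and its 3 called members were Slc7a2, Slc7a11 and Cry1. The list does not hold every gene the study names. Arntl, Cx3cr1 and Irf8 are not on it and were called as well. So were some of the many transcriptional regulators the study lists, Etv3 and Tle3 among them. The other 31 of the list ran from -0.28 (Ppard) to 0.37 (Il1b), with 21 above 0 and a smallest adjusted p of 0.0930 (Stat3). All 9 ubiquitin enzyme genes of that list were above 0, with a median of 0.24, from 0.07 for Rnf128 to 0.36 for Ube3a. None was called (smallest adjusted p = 0.138, Cblb). The study names these genes, and also Slc7a2 and Slc7a11, as higher in M-BKO M1 than in WT M1 of the same libraries. That difference is a part of the interaction, so the choice of genes itself favoured values above 0. Their share above 0 therefore cannot be weighed against the 41.5% of all tested genes.

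Genes of the extracellular matrix and of adhesion were called in both directions. Of 22 tested matrix enzyme and integrin genes, 2 were above 0 and 1 below 0, with a median of -0.05. Mmp13, the gene of collagenase-3, had 1361, 1381 and 1345 TPM in M-BKO M1 and 8.304, 7.79 and 8.16 TPM in M-BKO controls, against 1098, 1054 and 1083 TPM in WT M1 and 9.07, 8.45 and 9.92 TPM in WT controls. M1 cultures of the genotypes did not overlap, and the interaction was 0.49 ± 0.07 (limma adjusted p = 0.00259; called in all 12 left-out fits, highest 0.0149). Mmp12, the gene of macrophage elastase, had 15.8, 16.6 and 15.2 TPM in M-BKO M1 and 8.45, 7.72 and 7.62 TPM in M-BKO controls, against 12.3, 11.5 and 10.6 TPM in WT M1 and 8.48, 8.65 and 9.399 TPM in WT controls, with an interaction of 0.58 ± 0.10 (limma adjusted p = 0.0116; called in all 12, highest 0.0446). Its response passed the 1.5-fold threshold in M-BKO (0.92) and not in WT (0.34). Itgb5, which encodes the β5 integrin chain used in uptake of dying cells, had 12.03, 11.5 and 11.5 TPM in M-BKO M1 and 35.98, 35.8 and 35.1 TPM in M-BKO controls, against 12.3, 12.5 and 13.2 TPM in WT M1 and 21.2, 20.1 and 18.6 TPM in WT controls. The M-BKO controls were higher than every other culture, all 6 M1 cultures lay between 11.5 and 13.2 TPM, and the interaction was -0.91 ± 0.08 (limma adjusted p = 5.45e-05; called in all 12, highest 3.99e-04).

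Ndrg1, a gene that HIF-1 can drive, had 95.99, 98.03 and 92.8 TPM in M-BKO M1 and 40.2, 36.5 and 42.2 TPM in M-BKO controls, against 119, 124 and 119 TPM in WT M1 and 31.2, 32.1 and 38.5 TPM in WT controls, with an interaction of -0.55 ± 0.10 (limma adjusted p = 0.0163), lost without M-BKO M1 3 and without M-BKO control 1 (up to 0.0561). It was 1 of 2 calls, both below 0, among 27 tested genes of the HIF-1 pathway, whose median was -0.02. Igfbp4, which encodes a binding protein that holds insulin-like growth factors, had 83.5, 70.95 and 77.2 TPM in M-BKO M1 and 33.6, 33.9 and 32.8 TPM in M-BKO controls, against 104, 88.2 and 104 TPM in WT M1 and 23.9, 22.8 and 23.3 TPM in WT controls. It was higher in M-BKO controls and lower in M-BKO M1 than in WT, without overlap in either condition, with an interaction of -0.85 ± 0.10 (limma adjusted p = 4.62e-04; called in all 12, highest 0.00295).

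Pecam1, an adhesion gene of endothelial and myeloid cells, had 6.58, 5.65 and 6.49 TPM in M-BKO M1 and 1.503, 1.39 and 1.14 TPM in M-BKO controls, against 8.84, 10.52 and 9.58 TPM in WT M1 and 1.11, 1.299 and 1.03 TPM in WT controls, with an interaction of -0.68 ± 0.13 (limma adjusted p = 0.0206; lost in 5 of 12, up to 0.0672). It stands on the list of stromal and endothelial markers, of which 7 of 9 were under 1 TPM in every group and the sum was 43.9 to 52.0 TPM in M-BKO M1, 8.00 to 8.42 TPM in M-BKO controls, 66.3 to 66.7 TPM in WT M1 and 8.94 to 10.6 TPM in WT controls. Pecam1 was a small part of the M1 sums. The only other tested member, Kdr, had an interaction of 0.01 and was not called. Cav1, the gene of caveolin-1, had 15.4, 14.95 and 15.4 TPM in M-BKO M1 and 6.197, 6.36 and 6.99 TPM in M-BKO controls, against 9.502, 6.83 and 7.32 TPM in WT M1 and 5.98, 5.48 and 5.39 TPM in WT controls. M-BKO M1 cultures were the highest, and the interaction was 0.70 ± 0.13 (limma adjusted p = 0.02197; lost in 6 of 12, up to 0.0718).

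Ctsl (chr13:64363214-64370306, minus strand) encodes cathepsin L, a cysteine protease of lysosomes. It had 322, 342 and 329 TPM in M-BKO M1 and 591, 604 and 607 TPM in M-BKO controls, against 606, 659 and 618 TPM in WT M1 and 589, 609.7 and 641 TPM in WT controls. The M-BKO M1 cultures lay below the other 3 groups, which overlapped one another. The M1 response was -0.86 in M-BKO and 0.03 in WT, and the interaction of -0.89 ± 0.06 had the smallest adjusted p of all genes (limma adjusted p = 8.07e-06; called in all 12 left-out fits, highest 7.50e-05). Lgmn, the gene of the lysosomal protease legumain, was chosen after its values were seen, because it was called in all settings without a fold threshold. It had 1228, 1250.0 and 1234 TPM in M-BKO M1 and 1177, 1170.4 and 1179 TPM in M-BKO controls, against 1371, 1380.0 and 1365 TPM in WT M1 and 1038, 1025 and 1028 TPM in WT controls, with an interaction of -0.34 ± 0.04 (limma adjusted p = 4.62e-04; called in all 12, highest 0.00378).

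Of 18 tested scavenger and Fc receptor genes, 2 were called above 0 (Cd36 and Fcgr2b) and none below. Over all tested genes these shares were 0.536% and 0.841%. Of the 18, 13 were above 0, against 41.5% of all tested genes, and the median was 0.14. On the list of PPAR, LXR and lipid genes only Cd36 was called, and of its 22 tested genes 6 were above 0, with a median of -0.08. Cd36, which encodes a receptor for oxidized lipoproteins and fatty acids, fell less in M-BKO. It had 109, 112 and 104 TPM in M-BKO M1 and 199, 185 and 186 TPM in M-BKO controls, against 88.2, 70.1 and 78.6 TPM in WT M1 and 202, 194 and 244 TPM in WT controls, with an interaction of 0.62 ± 0.12 (limma adjusted p = 0.0245; lost in 7 of 12, up to 0.0730). Fcgr2b, the gene of the inhibitory Fc receptor for IgG, had 145, 159 and 155 TPM in M-BKO M1 and 102, 97.1 and 99.6 TPM in M-BKO controls, against 126, 126 and 126 TPM in WT M1 and 99.6, 101 and 113 TPM in WT controls. It rose in M-BKO past the threshold and not in WT, with an interaction of 0.34 ± 0.07 (limma adjusted p = 0.0313; lost in 8 of 12, up to 0.0898). Acsl1, which encodes an enzyme that activates long-chain fatty acids, was chosen after its values were seen, for its small adjusted p. It had 915, 882 and 912 TPM in M-BKO M1 and 343, 369 and 353 TPM in M-BKO controls, against 680.0, 655 and 670.2 TPM in WT M1 and 379, 389 and 392 TPM in WT controls, so that the controls were lower and the M1 cultures higher in M-BKO, without overlap in either condition. The interaction was 0.56 ± 0.05 (limma adjusted p = 5.45e-05; called in all 12, highest 5.25e-04).

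Osbpl3, a gene of the oxysterol-binding protein family, had 8.76, 8.91 and 9.35 TPM in M-BKO M1 and 8.36, 8.9996 and 7.85 TPM in M-BKO controls, against 5.604, 5.15 and 4.85 TPM in WT M1 and 8.21, 8.09 and 7.77 TPM in WT controls. WT M1 cultures were below the other 3 groups, and the interaction was 0.63 ± 0.10 (limma adjusted p = 0.00588; called in all 12, highest 0.0273). Cp, which encodes the copper-bearing ferroxidase ceruloplasmin, had 34.4, 35.8 and 34.4 TPM in M-BKO M1 and 5.38, 5.11 and 5.21 TPM in M-BKO controls, against 28.3, 27.3 and 27.1 TPM in WT M1 and 6.32, 6.62 and 7.47 TPM in WT controls, with an interaction of 0.65 ± 0.09 (limma adjusted p = 0.00187; called in all 12, highest 0.00931). Zdhhc2, a protein palmitoyltransferase gene, had 8.85, 10.2 and 10.2 TPM in M-BKO M1 and 3.43, 2.88 and 3.53 TPM in M-BKO controls, against 6.16, 6.19 and 5.48 TPM in WT M1 and 2.94, 3.44 and 4.204 TPM in WT controls, with an interaction of 0.70 ± 0.15 (limma adjusted p = 0.0324; lost in 8 of 12, up to 0.0901). Among genes below 0, Pla1a, which encodes a phospholipase for phosphatidylserine, had 5.53, 6.73 and 6.49 TPM in M-BKO M1 and 0.197, 0.1401 and 0.301 TPM in M-BKO controls, against 11.3, 9.77 and 10.46 TPM in WT M1 and 0.186, 0.145 and 0 TPM in WT controls, with an interaction of -0.80 ± 0.14 (limma adjusted p = 0.0116; called in all 12, highest 0.0401, and 0.163 with a pseudocount of 0.1). Ankrd13d, a ubiquitin-binding adaptor of receptor uptake, had 2.804, 1.93 and 2.31 TPM in M-BKO M1 and 6.097, 6.803 and 5.697 TPM in M-BKO controls, against 3.15, 2.74 and 3.24 TPM in WT M1 and 4.16, 4.54 and 3.92 TPM in WT controls, with an interaction of -0.75 ± 0.14 (limma adjusted p = 0.0217; lost in 5 of 12, up to 0.0692).

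For 3 of the larger interactions 1 genotype or condition was at or near 0 TPM. Trpa1, the gene of a cation channel gated by irritants, had 1.64, 1.69 and 1.59 TPM in M-BKO M1 and 6.08, 5.06 and 5.09 TPM in M-BKO controls, and it was listed at 0 in all 6 WT libraries. Its interaction of -1.27 ± 0.11 (limma adjusted p = 5.45e-05) is therefore the fall within M-BKO, and no fold against WT is given. Erdr1, placed on chromosome Y in the table and known as a gene near the shared end of the X and Y chromosomes, had 29.4, 25.2 and 17.6 TPM in M-BKO M1 and 2.63, 2.37 and 2.81 TPM in M-BKO controls, against 0.267, 0.126 and 0 TPM in WT M1 and 0 TPM in all 3 cultures of the WT control group. No WT library held more than 0.267 TPM, the interaction was 2.60 ± 0.20 (limma adjusted p = 1.92e-05), and with a pseudocount of 0.1 it was 2.11 (adjusted p = 0.0635). Of the sex-linked genes, Xist reached at most 0.00553 TPM in any library, and Ddx3y ran from 14.5 to 21.1 TPM over the libraries of both genotypes. U90926 had 45.5, 46.9 and 45.9 TPM in M-BKO M1 and 0 TPM in all 3 cultures of the M-BKO control group, against 20.1, 25.7 and 24.3 TPM in WT M1 and 0.176, 0 and 0 TPM in WT controls, with an interaction of 1.03 ± 0.13 (limma adjusted p = 0.00118) that was 1.47 with a pseudocount of 0.1 (adjusted p = 0.119). The call of all 3 was held in every left-out fit.

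Several pathways held no called gene, which for lists of 13 to 30 genes is close to the 1.38% called among all tested genes. None of 30 tested TCA cycle genes passed, with a median of 0.00 and a range from -0.37 (Pck2) to 0.22 (Pcx). None of 27 respiratory chain genes, 22 genes of branched-chain amino acid breakdown, 23 chaperone genes, 21 apoptosis genes or 13 genes of mitochondrial biogenesis passed, and their medians lay between -0.04 and 0.09. The 19 tested genes of cholesterol synthesis had the lowest median among lists of 10 or more genes, at -0.18 with 2 above 0, and none passed (smallest adjusted p = 0.0981). Of 27 glycolysis and pentose phosphate genes only Eno1 was called, and that call is taken up with the overlapping gene models.

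**Figure D4:**
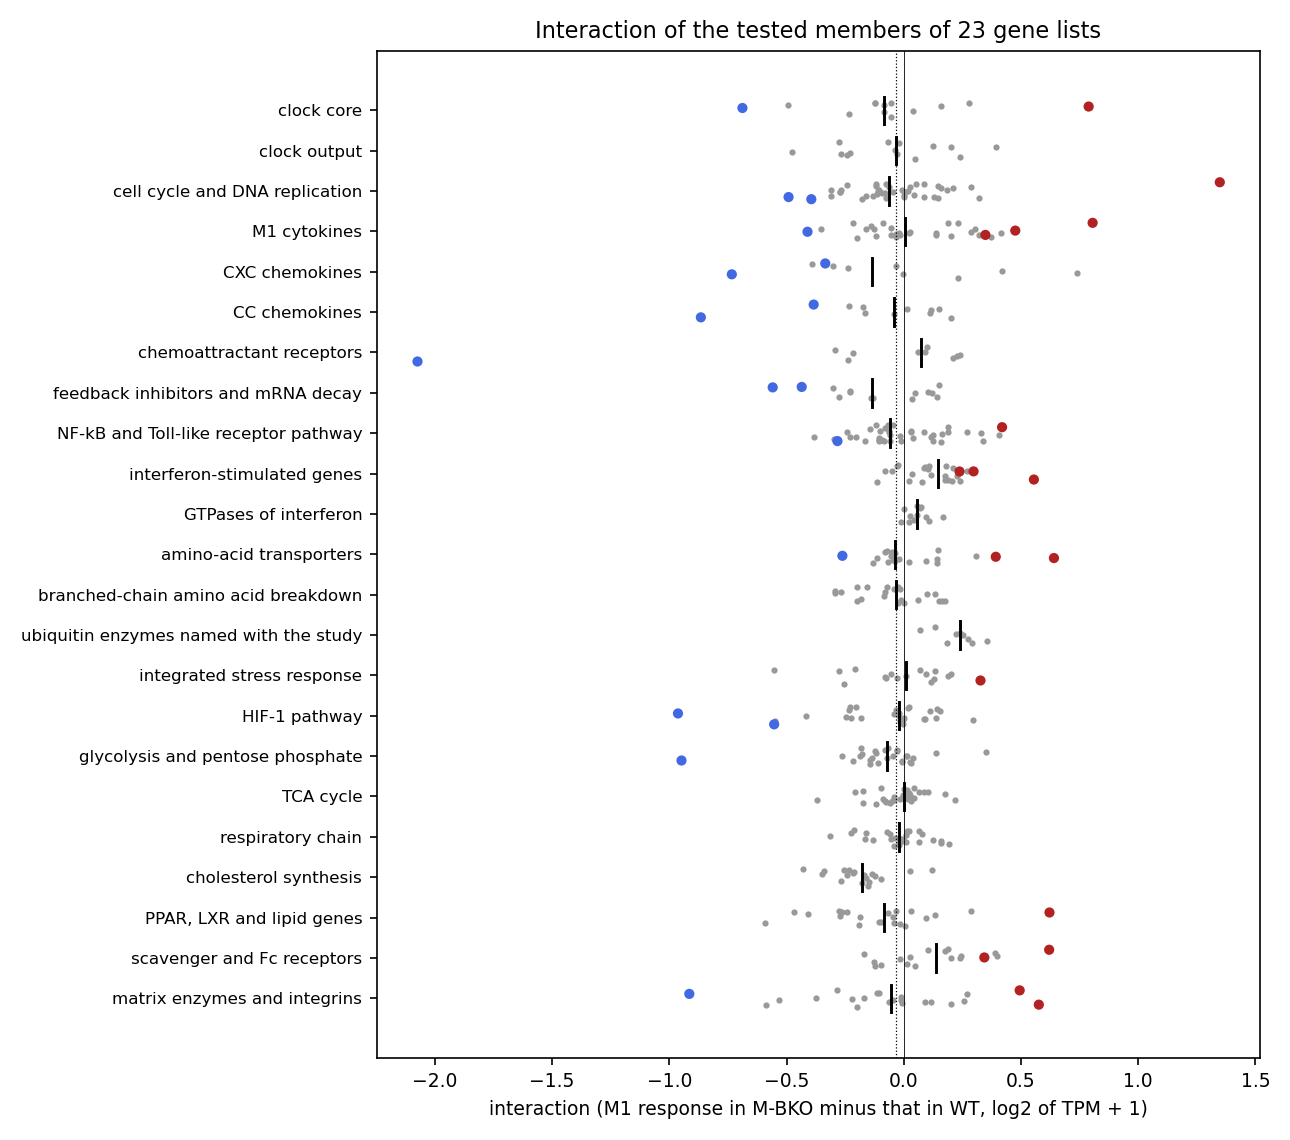
Interaction of each tested member of 23 gene lists, in log2 of TPM + 1; grey points are genes that did not pass the test, red and blue points called genes above and below 0, black bars the list medians, the solid line 0 and the dotted line the median of all tested genes. The list medians lie between -0.18 and 0.24, and most members of each list did not pass.

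The table gives separate values to gene models that overlap on the same strand, and the calls of Atp6v0c, Eno1 and Gm5643_1 were lost when such models were summed, an alternative chosen after seeing the data. Atp6v0c, a subunit gene of the lysosomal proton pump, had 26.4, 27.9 and 21.4 TPM in M-BKO M1 and 26.4, 19.1 and 16.1 TPM in M-BKO controls, against 63.9, 77.5 and 60.3 TPM in WT M1 and 13.7, 15.8 and 8.404 TPM in WT controls, with an interaction of -2.05 ± 0.28 (limma adjusted p = 0.00241). The model Atp6v0c-ps2 at the same place averaged 1735 TPM in M-BKO M1, 2182 TPM in M-BKO controls, 1659 TPM in WT M1 and 1999 TPM in WT controls, and the sum of both had an interaction of -0.12 ± 0.12 (adjusted p = 0.664). Eno1, the gene of the glycolytic enzyme enolase 1, had 267, 269.8 and 222 TPM in M-BKO M1 and 369, 433 and 415 TPM in M-BKO controls, against 422, 416 and 341 TPM in WT M1 and 323, 348 and 304 TPM in WT controls, with an interaction of -0.95 ± 0.13 (limma adjusted p = 0.00241). Summed with Gm5506_1 it had -0.015 ± 0.063 (adjusted p = 0.927). Gm5643_1, chosen here for its overlap with Hnrnpa1 and Gm10052, had 4.26 ± 0.65 (limma adjusted p = 0.00588) alone and 0.019 ± 0.066 (adjusted p = 0.908) as the sum of the 3. None of these 3 sums passed the test, and how reads were shared between the models was not tested. On the opposite strand 6 called genes overlap another model, among them Cp (Hps3), Cxcl10 (Art3) and Slc15a3 (Tmem132a), and the libraries were stranded, but no source read for this work says whether the counting used strand.

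**Figure D5:**
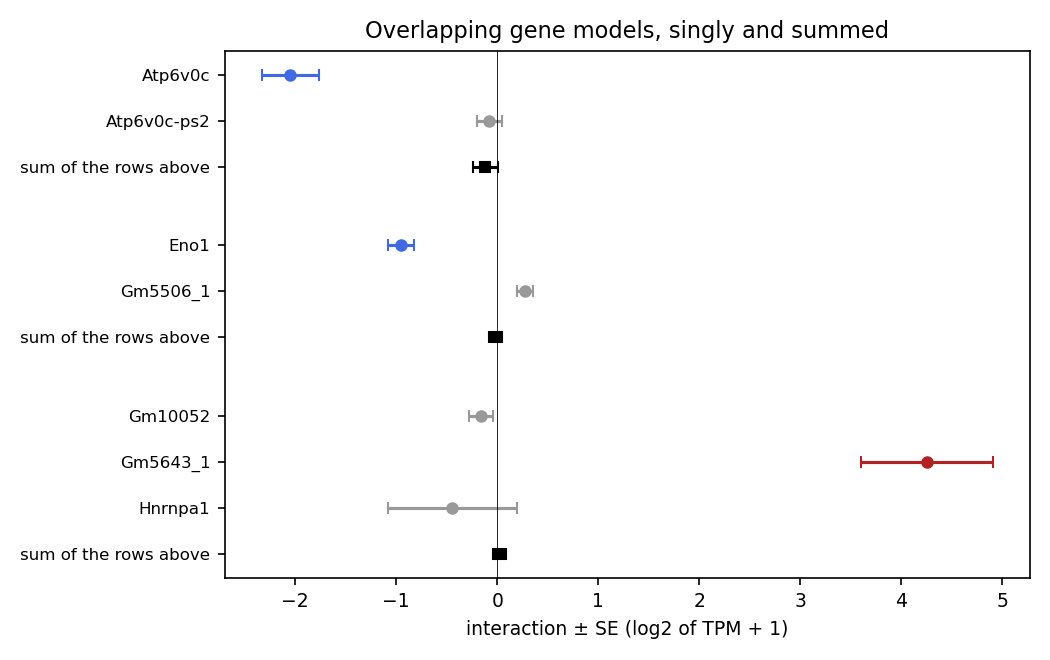
Interaction ± SE, in log2 of TPM + 1, for 3 sets of gene models that overlap on the same strand; circles are single models (blue or red where called, grey where not) and black squares the sum of the models above them. Each called model lies away from 0 while the sums lie between -0.12 and 0.02.

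Called genes were also placed on the genome, since the Cre was inserted on chromosome 10. Of 62 tested genes that start within 10 Mb of Lyz2, 1 was called, which was Lyz2 itself (1.61%, against 1.38% of all tested genes). A genotype difference of the same size with and without LPS cancels in the interaction, so this count cannot show one. Genotype differences within each condition were not counted for this region.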

How the data were processed

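Stranded mRNA libraries (TruSeq, NextSeq 500) of 12 cultures were trimmed, mapped to mm10 (2 mismatches, length and similarity fraction 0.9, at most 5 hits per read) and summarized in CLC Genomics Workbench, of a version that no source read here names. The authors deposited TPM per gene, and every library sums to 1000000. Multi-mapped reads were thus kept, which matters for overlapping or near-identical gene models. TPM keeps no read depth, so precision was taken from the spread between cultures. The authors' fold changes and p-values were not used.

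In R 4.3.3 with limma 3.58.1, log2(TPM + 1) was fitted for 10822 genes (at least 1 TPM in 3 or more libraries) with 4 group means (8 residual degrees of freedom, variances moderated with a trend on the mean level). The interaction is (M-BKO M1 minus M-BKO control) minus (WT M1 minus WT control). Tests were two-sided, p-values were adjusted by Benjamini-Hochberg over all tested genes, and calls needed an adjusted p under 0.05. The fold is on the log2(TPM + 1) scale and understates changes of low genes. The fit was tested on simulated data.

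Genes named are the 12 largest interactions per direction among called genes with a group mean of at least 5 TPM, without predicted genes, at most 3 called members in either direction from each of 40 gene lists, Arntl, Lyz2 and a list taken from the genes the study names; some that met the rule are not reported here. The lists and members were chosen with earlier results of these data known. Alternatives varied the pseudocount, filter, scaling, variance model, replicate block and library set. Sums of gene models overlapping by at least 80% of both on 1 strand were added after seeing the data. Motifs were counted with Python 3.11.15 in RefSeq windows. The study's other experiments were not analysed here.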

Additional observations from a re-analysis of the deposited data

Results flagged for a closer look

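In 10 called genes the M1 response had opposite signs in M-BKO and WT, each response past an adjusted p of 0.05 in limma without a fold threshold, and the difference itself was tested by the interaction. The response was above 0 in M-BKO and below 0 in WT for Gm5643_1 (interaction 4.26), Ccne1 (1.35), Gm20594 (1.26), Gm7120 (1.02), Arntl (0.79), Met (0.60) and Chchd4 (0.38). Arntl is the gene deleted in M-BKO, so its response there is that of the RNA left. For Met, the gene of the receptor of hepatocyte growth factor, the responses were 0.26 in M-BKO and -0.34 in WT. The response was below 0 in M-BKO and above 0 in WT for Eno1 (-0.95), Arl4c (-0.52) and Arrb2 (-0.24), the gene of β-arrestin 2, whose responses were -0.16 in M-BKO and 0.08 in WT. The calls of Arl4c and Arrb2 were each lost in 8 of 12 left-out fits (limma adjusted p up to 0.0844 and 0.0898). That of Chchd4 was lost in 1 (up to 0.0629). The interactions of Gm5643_1 and Eno1 were 0.019 and -0.015 when they were summed with the gene models that overlap them.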

How the results depend on the processing

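Against 58 genes above 0 and 91 below 0, weights per library (estimated gene by gene) gave 159 and 317 calls, a further threshold of 1.5-fold 21 and 26, and a pseudocount of 5 gave 78 and 146. Leaving out 1 library gave 27 to 80 above 0 and 30 to 133 below 0. M-BKO control 2 left out gave 27 and 30, M-BKO M1 3 gave 28 and 38, M-BKO control 1 gave 30 and 37, WT M1 3 gave 31 and 42, M-BKO M1 2 gave 32 and 41, M-BKO M1 1 gave 34 and 52, M-BKO control 3 gave 36 and 44, WT M1 2 gave 37 and 49, and WT control 2 gave 49 and 54. A fit with 1 library fewer has less power by construction. The other settings stayed within 1.5 times the counts, and among called genes only the interaction of G530011O06Rik turned its sign. Some uncalled genes turned theirs in some settings (Bnip3, Nfkb1, Nr1d1, Nr1d2, Per1, Rnf128 and Rora). Their interactions in the main fit ran from -0.12 (Rora) to 0.28 (Nr1d2). The replicate numbers of the labels were not treated as pairing: libraries of the same number correlated from -0.25 to 0.26 around their group means over 18 pairs, and 5 of 12 libraries were closest to their own number. With the number as a block the calls were 52 above 0 and 82 below 0, of which 49 and 75 were among the 58 and 91. Of the genes described above, Cxcl1, Mx1, Oasl2 and Tlr13 lost the call with this block. Depth is unknown for TPM, and genes near 1 TPM depend on the pseudocount.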

Other observations

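Some genes outside the rule for naming were called in all settings that tested them and set no fold threshold, and are given here as values, chosen after they were seen. Receptor genes stood among them. Il4ra, which encodes the interleukin-4 receptor chain of alternative activation, had 155, 152 and 152 TPM in M-BKO M1 and 222, 226 and 229 TPM in M-BKO controls, against 202, 206 and 192 TPM in WT M1 and 235, 226 and 206 TPM in WT controls, with an interaction of -0.41 ± 0.07 (limma adjusted p = 0.00878). The M1 cultures of the genotypes did not overlap and the controls did. Il17ra, an interleukin-17 receptor gene, had 45.3, 45.5 and 44.0009 TPM in M-BKO M1 and 10.8, 10.2 and 11.3 TPM in M-BKO controls, against 48.1, 47.2 and 46.7 TPM in WT M1 and 8.33, 7.98 and 8.17 TPM in WT controls, with an interaction of -0.44 ± 0.07 (limma adjusted p = 0.00859), and here the controls were apart by 0.36 (log2). Lair1, an inhibitory receptor gene for collagen, had 17.4, 19.2 and 17.7 TPM in M-BKO M1 and 233, 219 and 225 TPM in M-BKO controls, against 12.2, 11.01 and 11.6 TPM in WT M1 and 207, 207 and 245 TPM in WT controls, with an interaction of 0.56 ± 0.09 (limma adjusted p = 0.0102), falling less far in M-BKO.

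Cfb, the gene of complement factor B, had 773, 756 and 773 TPM in M-BKO M1 and 234, 256 and 245 TPM in M-BKO controls, against 678, 752 and 699 TPM in WT M1 and 309, 334 and 322 TPM in WT controls, with an interaction of 0.50 ± 0.06 (limma adjusted p = 0.00143). Its controls were lower in M-BKO without overlap. Tgm2, the gene of tissue transglutaminase, had 287, 281 and 278 TPM in M-BKO M1 and 631, 638 and 617 TPM in M-BKO controls, against 279, 309.7 and 287 TPM in WT M1 and 451, 465 and 429 TPM in WT controls, with an interaction of -0.53 ± 0.06 (limma adjusted p = 4.62e-04). M-BKO controls were the highest group. Furin, a proprotein convertase gene, had 77.8, 76.5 and 75.95 TPM in M-BKO M1 and 36.01, 35.7 and 34.4 TPM in M-BKO controls, against 87.0024, 88.04 and 84.6 TPM in WT M1 and 28.96, 27.9 and 22.3 TPM in WT controls, with an interaction of -0.59 ± 0.10 (limma adjusted p = 0.0139). Dapk1, a death-associated kinase gene, had 12.1, 10.7 and 11.4 TPM in M-BKO M1 and 45.2, 45.5 and 43.1 TPM in M-BKO controls, against 23.1, 22.8 and 22.02 TPM in WT M1 and 51.6, 53.4 and 53.9 TPM in WT controls, with an interaction of -0.69 ± 0.07 (limma adjusted p = 3.61e-04), with M-BKO lower than WT in both conditions and without overlap.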
